A study of Mus musculus with 6 samples.

Results

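The proteasome genes were read in the RNA of colon CD4 T cells, which had been sorted from the lamina propria, the connective tissue under the gut epithelium of mice. Members were all genes of the count table whose symbol begins with Psma, Psmb, Psmc, Psmd, Psme, Psmf or Psmg followed by a digit, apart from pseudogene symbols containing "-ps". The rule found 50 genes among 55335. It set Psmb8, Psmb9, Psmb10, Psme1 and Psme2, the 5 interferon-inducible genes, apart from the other 45.

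Splenic naive CD4 T cells of mice with a GFP reporter of Tcf7 had been given to Rag1 knockout hosts, where they caused colitis. The product of Tcf7, TCF1, is a transcription factor that naive and memory T cells need. The 2 groups were GFP-positive cells (TCF7+) and GFP-negative cells (TCF7-, named effector T cells in the labels), with 3 libraries each. Both gates share the donor genotype, the Rag1 knockout host, which lacks T and B cells of its own, and the colitis. The labels give no age and no time after transfer, and they do not say whether replicates are separate mice. The p-values thus measure the spread between these samples, which may be technical.

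The proteasome degrades proteins that carry ubiquitin chains. Its 20S core is a barrel of alpha and beta rings in which 3 of the beta subunits cut peptide bonds, and the 19S particle at its ends binds, unfolds and feeds in the substrate. Interferon-gamma induces the catalytic subunits Psmb8, Psmb9 and Psmb10, which take the places of Psmb5, Psmb6 and Psmb7 in newly built cores and form the immunoproteasome. It also induces Psme1 and Psme2, which together form the PA28 cap. Lymphocytes carry much immunoproteasome, and its products supply peptides for MHC class I. Proliferating and activated T cells are known to raise their proteasome content.

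The promoters of 3 members are shown, which belong to the inducible and constitutive genes whose levels are set against each other. Each holds an interferon or antioxidant response motif in the 250 bases before its RefSeq start. A match to CCAAT, which was also searched, was no ground for showing a promoter. Sequences are the 250 bases before the RefSeq start on GRCm38.p6, read 5′ to 3′ on the gene's strand, with the motif in capitals. In Psmb8 (chr17:34197945-34198194, plus strand) the capitals mark TTCNNNGAA, the interferon-gamma-activated site. This window lies inside the GENCODE M21 model of Psmb8, which starts at base 34197721, so it is upstream of the RefSeq start only. In Psmb5 (chr14:54617996-54618245, minus strand) and Psmb6 (chr11:70525107-70525356, plus strand) they mark TGACNNNGC, the core of the antioxidant response element, to which NFE2L1, an activator of proteasome subunit genes, binds.
Psmb8: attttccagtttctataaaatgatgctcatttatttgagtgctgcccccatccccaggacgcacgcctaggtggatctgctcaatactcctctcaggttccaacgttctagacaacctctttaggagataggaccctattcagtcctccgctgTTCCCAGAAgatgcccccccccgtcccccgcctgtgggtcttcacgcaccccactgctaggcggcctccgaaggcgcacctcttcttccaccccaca
Psmb5: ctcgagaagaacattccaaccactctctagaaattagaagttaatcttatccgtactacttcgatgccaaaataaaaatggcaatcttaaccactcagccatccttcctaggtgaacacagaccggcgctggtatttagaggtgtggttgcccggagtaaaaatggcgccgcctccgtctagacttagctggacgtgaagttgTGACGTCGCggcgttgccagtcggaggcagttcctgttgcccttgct
Psmb6: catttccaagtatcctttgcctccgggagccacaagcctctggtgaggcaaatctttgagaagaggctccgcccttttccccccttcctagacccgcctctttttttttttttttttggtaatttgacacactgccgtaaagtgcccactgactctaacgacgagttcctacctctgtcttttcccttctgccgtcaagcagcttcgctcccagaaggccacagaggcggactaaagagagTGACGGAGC

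Both strands of windows from 250 bases before to 50 bases after the start were searched, for the 42 members found in the RefSeq promoter table. TTCNNNGAA was found in 8.30% of all 32851 promoters, in 1 of the 5 inducible genes (Psmb8) and in 2 of the 37 other members matched (Psmd2 and Psmg1). TGACNNNGC was found in 12.4% of all promoters, in none of the 5 inducible genes and in 6 of 37 others (Psmb5, Psmb6, Psmc6, Psmd9, Psmd12 and Psme4). The core of the interferon-stimulated response element, GAAA, any 2 bases and GAAA again, was found in 3.44% of all promoters, in Psme1 among the inducible genes and in Psmb3, Psmd4, Psmd9 and Psmg4 among the others. CCAAT stood in 37.4% of all promoters, in 1 of 5 inducible genes (Psmb9) and in 14 of 37 others. These matches are letters in a window and say nothing of binding.

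Several members lie next to each other in the genome (GENCODE M21 gene models on mm10). Psmb9 (chr17:34181987-34187764, minus strand, 4 exons) and Psmb8 (chr17:34197721-34201454, plus strand, 4 exons) flank Tap1, a subunit of the transporter that carries peptides into the endoplasmic reticulum. The promoter windows of Psmb9 and Tap1 point in opposite directions and overlap by 275 bases. Psme1 (chr14:55578123-55581529, plus strand) and Psme2 (chr14:55587441-55591113, minus strand) are close neighbours. Psmb5 (chr14:54614119-54618022, minus strand, 3 exons) lies beside Psmb11 on the same chromosome, and Psmb10 is on chromosome 8. Psmb6 is on chromosome 11 (chr11:70525367-70527858, plus strand, 4 exons) and Psmb7 on chromosome 2 (chr2:38588036-38644087, minus strand, 8 exons). The ATPase genes Psmc3 (chr2:91054009-91066369, plus strand) and Psmc1 (chr12:100110154-100123405, plus strand) have 12 exons each.

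The libraries held between 4309500 and 7462076 counts, so that 3 counts corresponded to 0.43 to 0.69 CPM (counts scaled to the same library total). Tcf7 stood at 121.1, 140.5 and 71.3 CPM in the 3 GFP-negative libraries (replicates 1, 2 and 3) and at 237.4, 183.0 and 140.8 CPM in the 3 GFP-positive libraries, higher in every GFP-positive library, with an adjusted p of 0.367. All 7 T cell markers were detected in every library and took 0.403% to 0.565% of counts. GFP-positive replicate 3 stood apart: 12 myeloid markers together took 0.681% of its counts, against 0.0137% to 0.0196% in the other 5 libraries, and 8 markers of antigen-presenting cells took 0.660% against 0.0187% to 0.0447%. It was also the highest in markers of natural killer and innate lymphoid cells (0.0796% against at most 0.0152%), of epithelium (0.0310% against at most 0.0050%) and of stroma and endothelium (0.0318% against at most 0.0011%). Antigen-presenting cells also express the inducible members, whose log2 fold changes and ratios are given with and without this library. The part of these cells in the proteasome values was not tested. By edgeR's quasi-likelihood test, adjusted over all genes, 12 of 11074 genes tested (0.108%) passed an adjusted p of 0.05 (81 with the replicate number as a block, and 0 to 42 with 1 library left out, the 42 without GFP-positive replicate 3).

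None of the 48 members tested passed that threshold in either direction, by edgeR, DESeq2 or limma-voom. The median log2 fold change, GFP-positive minus GFP-negative, was -0.19 over the 48 members and 0.02 over all genes tested. Values below 0 were found for 38 of the 48 members (79.2%) and for 48.4% of all genes, and values above 0 for 10 members and 51.6% of all genes. The median was 0.05 for the 5 inducible genes, which lay between -0.04 and 0.16, and it turned to -0.06 without GFP-positive replicate 3 and to -0.04 on the TPM scale. It was -0.21 for the other 43 tested, of which 37 were below 0 (-0.25 and again 37 without GFP-positive replicate 3). At an unadjusted p under 0.05, 8 of those 43 were lower in GFP-positive cells (5.97% of all genes were), none was higher (4.31% of all genes were), and none of the 5 inducible genes was on either side (10.3% of all genes were on one of them).

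Ranges of CPM that did not overlap between the gates were found for 10 of the other 43 members with GFP-positive lower (8.8% of all genes) and for 1, Psmg2, with GFP-positive higher (7.25% of all genes). None of the 5 inducible genes was among them. The mean log2(CPM + 1) of the 43 was 6.60, 6.74 and 6.81 in the 3 GFP-negative libraries and 6.52, 6.45 and 6.56 in the GFP-positive ones. On this mean all GFP-positive libraries thus lay below all GFP-negative ones, with GFP-negative replicate 1 the nearest to them. The same mean over the 19S particle did not overlap either. Over the constitutive 20S core it did, at 7.52 in GFP-negative replicate 1 and 7.57 in GFP-positive replicate 3. Without GFP-negative replicate 1 the median log2 fold change of the 43 was -0.31. With fewer libraries more genes of any kind lay apart. When GFP-negative replicate 1, 2 or 3 was left out, 20, 12 and 10 of the 43 did not overlap with GFP-positive lower, against 15.1%, 12.3% and 12.1% of all genes. When GFP-positive replicate 1, 2 or 3 was left out, 20, 12 and 15 did not, against 13.8%, 13% and 15.2% of all genes. At an unadjusted p under 0.05, 12, 4 and 5 of the 43 were lower without GFP-negative replicate 1, 2 or 3 (5.63%, 3.74% and 3.71% of all genes). The numbers were 8, 5 and 7 without GFP-positive replicate 1, 2 or 3 (5.15%, 4.74% and 7.56% of all genes). In a bulk sample, fewer cells of a type and less RNA per cell cannot be told apart.

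**Figure D1:**
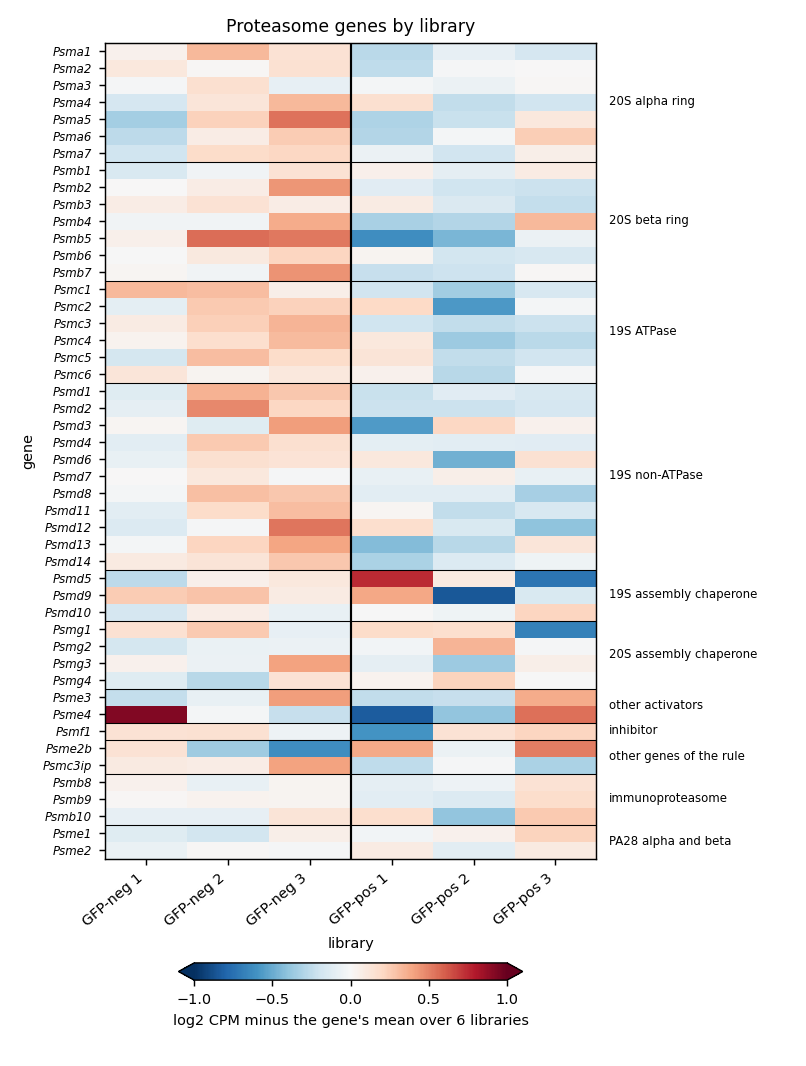
Level of each tested member in each of the 6 libraries (columns), as log2 CPM minus the gene's own mean over the libraries, with genes in rows grouped by role. Red is above and blue below the gene's mean, the colours end at -1 and 1, and the black line parts GFP-negative from GFP-positive libraries. Rows of the core rings and the 19S particle are mostly redder on the left, while those of the immunoproteasome and of PA28 alpha and beta have no such side, with Psmb10 blue in GFP-positive replicate 2 (126.2 CPM) and red in replicate 3 (198.5 CPM).

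Mki67 and Top2a, 2 genes of dividing cells that were chosen after their values were seen, are given beside these values. Mki67, a nuclear protein of dividing cells, stood at 88.2, 191.5 and 212.7 CPM in the 3 GFP-negative libraries (replicates 1, 2 and 3) and at 53.7, 89.7 and 78.3 CPM in the GFP-positive ones (adjusted p = 0.305, and 0.0186 with the replicate block), and the gates overlapped. Top2a, the topoisomerase of dividing cells, stood at 124.6, 231.3 and 298.4 CPM against 68.2, 122.3 and 116.8 CPM (adjusted p = 0.379, and 0.00910 with the block). GFP-negative replicate 1 was the lowest of its gate for both genes. Their part in the proteasome values was not tested.

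Among the subunits of the beta ring, Psmb5 had the largest difference of any member. Psmb5 encodes the constitutive subunit with chymotrypsin-like activity, the target of the drug bortezomib. Its CPM was 56.2, 79.6 and 78.3 in the 3 GFP-negative libraries and 35.2, 39.5 and 51.9 in the GFP-positive ones. The highest GFP-positive library lay just under the lowest GFP-negative one. The means were 71.4 ± 13.1 and 42.2 ± 8.69 CPM (SD, n = 3 each), a log2 fold change of -0.75 ± 0.23 (SE; 95% interval -1.25 to -0.26) with an adjusted p of 0.251. Leaving out 1 library at a time gave between -0.93 and -0.64. Raw counts of Psmb5 ran from 172 to 362 per library. Of its 100-base stretches 22.2% also occur in other gene models, chiefly Gm3375, which held 1 to 3 counts per library.

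The constitutive trypsin-like and caspase-like subunits had smaller differences, and their groups overlapped. Psmb7, the trypsin-like subunit, stood at 45.2, 43.4 and 61.0 CPM in the 3 GFP-negative and at 37.9, 38.6 and 44.9 CPM in the 3 GFP-positive libraries, a log2 fold change of -0.30 ± 0.22 (SE, adjusted p = 0.717) that ran from -0.40 to -0.12 with 1 library left out. Psmb6, the caspase-like subunit, stood at 281.8, 302.9 and 328.5 CPM against 288.7, 249.4 and 253.6 CPM, a log2 fold change of -0.21 ± 0.14 (SE, adjusted p = 0.671). For each of them 1 GFP-positive library lay within the GFP-negative range. Reads of Psmb7 can be shared with Nek6, which lies on the opposite strand and overlaps 405 exonic bases, because the library method does not record the strand.

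The remaining beta subunits have no catalytic site. Psmb2 stood at 216.3, 227.4 and 293.0 CPM in the 3 GFP-negative and at 199.3, 188.3 and 186.2 CPM in the 3 GFP-positive libraries. All GFP-positive libraries lay below the GFP-negative ones, and the log2 fold change was -0.36 ± 0.15 (SE, adjusted p = 0.432). Psmb3 and Psmb4 had log2 fold changes of -0.19 and -0.17. Psmb1 was the one subunit of the ring above 0, at 0.03 ± 0.14 (SE), but it lay below 0 on the TPM scale (-0.036) and without GFP-negative replicate 1 (-0.044).

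The alpha rings form the gated ends of the barrel. All 7 of their subunits tested had a log2 fold change below 0, from -0.35 in Psma1 to -0.04 in Psma3, with a median of -0.17. Psma1 stood at 268.3, 325.9 and 287.5 CPM in the 3 GFP-negative and at 215.6, 246.0 and 231.8 CPM in the 3 GFP-positive libraries (adjusted p = 0.410). Psma2 stood at 391.9, 367.5 and 404.6 CPM against 305.0, 360.7 and 365.9 CPM (adjusted p = 0.727). The gates did not overlap for either gene, although for Psma2 the highest GFP-positive and the lowest GFP-negative library nearly met. The other 5 alpha subunits overlapped between the gates, and Psma3 and Psma6 moved above 0 (0.02 and 0.08) when GFP-negative replicate 2 or 3 was left out.

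The base of the 19S particle is a ring of 6 ATPases, which unfold the substrate and open the gate of the core. All 6 had a log2 fold change below 0, with a median of -0.29 and a range from -0.46 to -0.16. Psmc1 stood at 120.6, 119.4 and 100.4 CPM in the 3 GFP-negative and at 84.5, 75.9 and 86.2 CPM in the 3 GFP-positive libraries. Psmc3 stood at 182.8, 204.0 and 218.0 CPM against 150.2, 145.3 and 148.9 CPM. Both genes were lower in every GFP-positive library, and the 3 GFP-positive values of Psmc3 lay close together. The log2 fold changes were -0.46 ± 0.16 for Psmc1 (SE, adjusted p = 0.325) and -0.44 ± 0.14 for Psmc3 (SE, adjusted p = 0.255). Psmc3 overlaps Slc39a13 on the opposite strand over 215 exonic bases. Psmc4 missed an unadjusted p of 0.05 and overlapped between the gates, at 187.6 ± 18.3 and 148.2 ± 26.5 CPM (SD, n = 3 each).

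All 11 non-ATPase subunits of the 19S particle had a log2 fold change below 0 as well, with a median of -0.27. Psmd2, a scaffold of the base on which shuttle proteins dock, stood at 158.7, 235.4 and 195.2 CPM in the 3 GFP-negative and at 145.6, 145.8 and 150.0 CPM in the 3 GFP-positive libraries. Psmd8, a lid subunit, stood at 182.6, 227.8 and 223.2 CPM against 172.1, 171.7 and 146.7 CPM. Psmd14, the deubiquitinase of the lid that cuts ubiquitin chains off the substrate, stood at 188.6, 193.7 and 213.4 CPM against 142.0, 161.2 and 172.0 CPM. In each of these 3 genes the GFP-positive libraries lay below all GFP-negative ones. Their log2 fold changes were -0.42 ± 0.16, -0.37 ± 0.15 and -0.33 ± 0.14 (SE), with adjusted p-values of 0.382, 0.410 and 0.454. The smallest differences of the group were those of Psmd7 (-0.06) and Psmd6 (-0.12, and 0.05 without GFP-positive replicate 2).

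**Figure D2:**
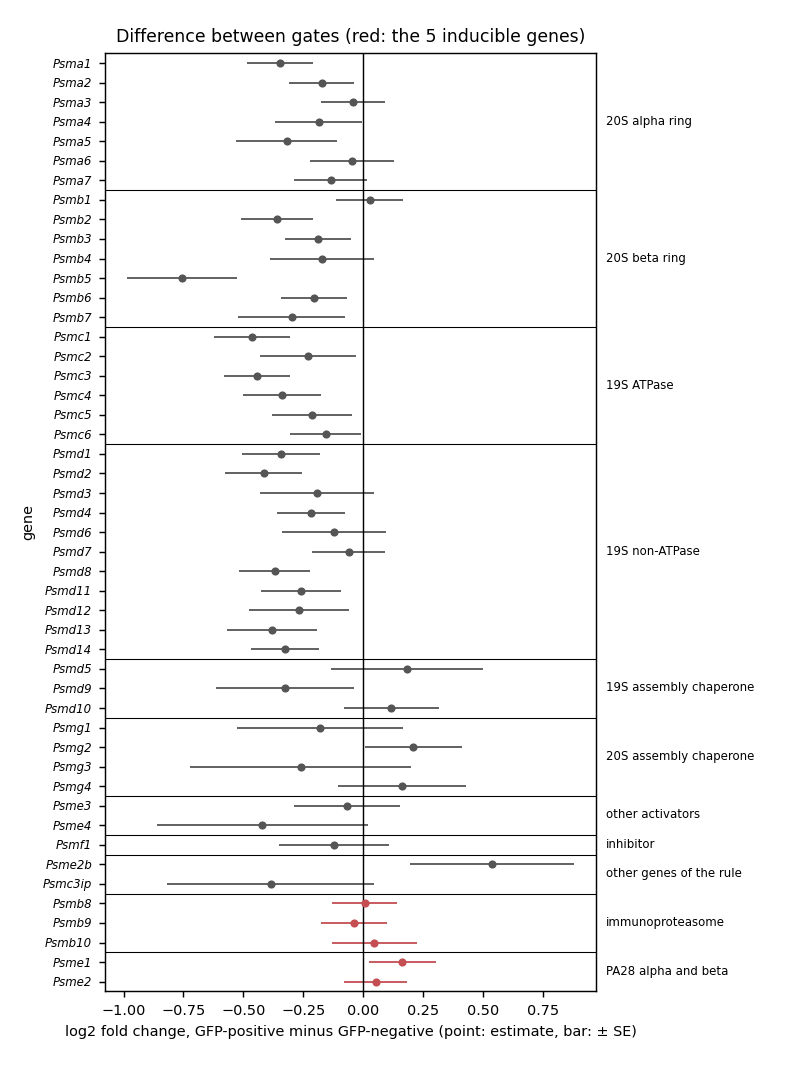
Log2 fold change of each tested member (GFP-positive minus GFP-negative; point with a bar of ± 1 SE), grouped by role, with the 5 inducible genes in red. All points of the alpha ring and of the 19S ATPase and non-ATPase groups lie left of 0. Among the 19S assembly chaperones, Psmd5 and Psmd10 lie right of 0. Psmb5 lies farthest left at -0.75, and the red points lie between -0.04 and 0.16.

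The chaperones that build the particle had values on both sides of 0, and 51.6% of all genes were above it. Of the 19S assembly chaperones, Psmd5 (0.18 ± 0.32, SE) and Psmd10 (0.12 ± 0.20) were above 0 and Psmd9 (-0.33 ± 0.29) below. Psmd5 had 120.4, 76.6 and 43.5 CPM in the 3 GFP-positive libraries, a spread wider than the 59.9 to 77.4 CPM of the GFP-negative libraries, and its log2 fold change was -0.24 without GFP-positive replicate 1. Of the 20S assembly chaperones, Psmg2 (0.21 ± 0.20) and Psmg4 (0.16 ± 0.27) were above 0, and Psmg1 (-0.18 ± 0.35) and Psmg3 (-0.26 ± 0.46) below. Psmg2 stood at 48.7, 52.3 and 52.6 CPM in the 3 GFP-negative and at 53.9, 69.4 and 54.4 CPM in the 3 GFP-positive libraries, ranges that lay apart by about 1 CPM. Psmg3 was the weakest of the 4, with 28 to 60 counts per library.

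Caps other than the 19S particle and the inhibitor gave no separated ranges. Psme3, which encodes the nuclear PA28 gamma cap, stood at 100.1 ± 24.6 and 95.3 ± 24.5 CPM (SD, n = 3 each). Psme4, which encodes the PA200 cap, stood at 29.9, 15.5 and 13.4 CPM in the 3 GFP-negative and at 8.83, 12.0 and 22.9 CPM in the 3 GFP-positive libraries. The highest value was in a GFP-negative and the lowest in a GFP-positive library, with wide overlap between. Psmf1, the PI31 protein that binds the core, stood at 68.2 ± 5.34 and 62.7 ± 17.6 CPM.

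The rule also took genes that are no ordinary subunits. Psma8, the alpha subunit of the testis, and Psmb11, the beta subunit of the thymus cortex, had 0 counts in all 6 libraries, which allows up to 0.69 CPM. Psmc3ip, a factor of meiotic recombination in spite of its symbol, stood at 10.6 ± 1.41 and 8.15 ± 0.922 CPM without overlap (log2 fold change -0.39 ± 0.43, SE), and 14.6% of its 100-base stretches also lie in Mlx. Psme2b, a single-exon gene with 52.0% of its 100-base stretches in Psme2, stood at 14.8 ± 4.12 and 21.5 ± 4.22 CPM. Its log2 fold change of 0.54 ± 0.34 (SE, adjusted p = 0.657) was the highest of all members and is uncertain, since reads of Psme2 could have been counted there.

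The catalytic subunits of the immunoproteasome did not differ detectably between the gates. Psmb8, the inducible chymotrypsin-like subunit, stood at 564.4, 519.4 and 556.3 CPM in the 3 GFP-negative and at 514.2, 527.2 and 604.4 CPM in the 3 GFP-positive libraries. Psmb9, the inducible counterpart of Psmb6, stood at 395.8, 402.9 and 401.1 CPM against 365.6, 357.5 and 444.8 CPM. Psmb10, the inducible trypsin-like subunit, stood at 156.8, 156.9 and 181.8 CPM against 186.3, 126.2 and 198.5 CPM. For all 3 genes the GFP-positive range enclosed the GFP-negative one, and GFP-positive replicate 3 was the highest library. The log2 fold changes were 0.01 for Psmb8 (95% interval -0.29 to 0.30), -0.04 for Psmb9 (-0.34 to 0.26) and 0.05 for Psmb10 (-0.34 to 0.43), with adjusted p-values of 0.993, 0.955 and 0.959. When GFP-positive replicate 3, in which markers of other cell types were high, was left out, they were -0.06, -0.14 and -0.07. Psmb8 and Psmb10 were also below 0 on the TPM scale (-0.06 and -0.04). Psmb9 overlaps Tap1 on the opposite strand over 212 exonic bases, and reads from there cannot be told apart.

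PA28 alpha and beta gave the same picture. Psme1 stood at 375.1, 358.4 and 423.9 CPM in the 3 GFP-negative and at 400.2, 419.8 and 475.3 CPM in the 3 GFP-positive libraries. Psme2 stood at 426.4, 449.3 and 442.7 CPM against 473.5, 415.9 and 476.2 CPM. The gates overlapped for both. The log2 fold changes were 0.16 for Psme1 (95% interval -0.14 to 0.47, adjusted p = 0.760) and 0.05 for Psme2 (-0.24 to 0.34, adjusted p = 0.933). Without GFP-positive replicate 3 they were 0.10 and 0.03, and on the TPM scale Psme2 was below 0 (-0.016) while Psme1 was above it (0.10). Of the 100-base stretches of Psme2, 18.4% also occur in Psme2b.

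**Figure D3:**
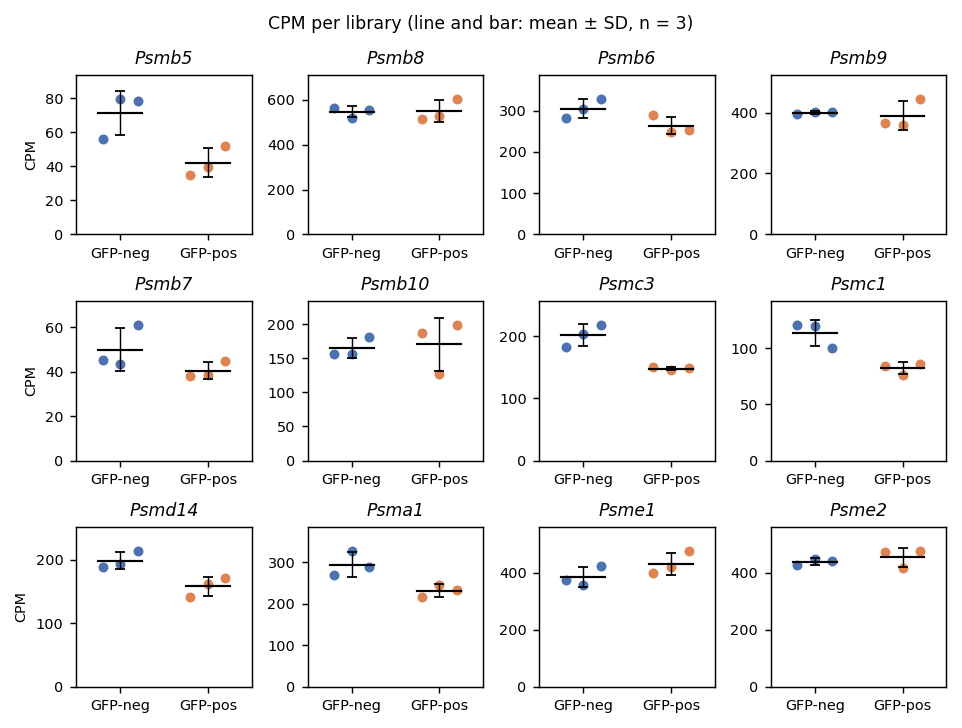
CPM of 12 members in each library (points, left to right replicates 1 to 3; blue GFP-negative, orange GFP-positive; line and bar, mean ± SD of 3 libraries; each axis starts at 0). The points of Psmb5, Psmc3, Psmc1, Psmd14 and Psma1 are separated between the gates, and those of Psmb6, Psmb7, Psmb8, Psmb9, Psmb10, Psme1 and Psme2 overlap.

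The balance between inducible and constitutive catalytic subunits was read within each library as a ratio of TPM, the deposited transcript level scaled for gene length and library total. The ratio of Psmb8 to Psmb5 was 2.67, 1.74 and 1.89 in the 3 GFP-negative and 3.89, 3.54 and 3.10 in the 3 GFP-positive libraries. It was higher in every GFP-positive library, with means of 2.10 ± 0.50 and 3.51 ± 0.40 (SD, n = 3 each). The difference in log2 ratio was 0.76, and 0.64 to 0.95 when 1 library was left out. Psmb8 itself stood at 471 ± 10.997 and 451 ± 10.8 TPM, and Psmb5 at 232 ± 44.9 and 129.7 ± 16.3 TPM.

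The other pairs overlapped. The ratio of Psmb9 to Psmb6 was 0.718, 0.680 and 0.624 in the 3 GFP-negative and 0.648, 0.733 and 0.897 in the 3 GFP-positive libraries, a log2 difference of 0.16 that was 0.03 without GFP-positive replicate 3 and at most 0.27 with another library left out. The ratio of Psmb10 to Psmb7 was 6.97, 7.25 and 5.98 against 9.86, 6.56 and 8.87, a log2 difference of 0.31. Dropping GFP-positive replicate 1, 2 or 3 changed it to 0.18, 0.48 and 0.26, which spans the range over all 6 libraries dropped in turn. In both pairs 1 GFP-positive library lay within the GFP-negative range. The inducible genes together made up 61.9%, 57.5% and 57.6% of the TPM of the 6 catalytic genes in the 3 GFP-negative and 63.9%, 63.5% and 66.9% in the 3 GFP-positive libraries. No test was made of these ratios, and their levels depend on the gene lengths used for TPM.

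**Figure D4:**
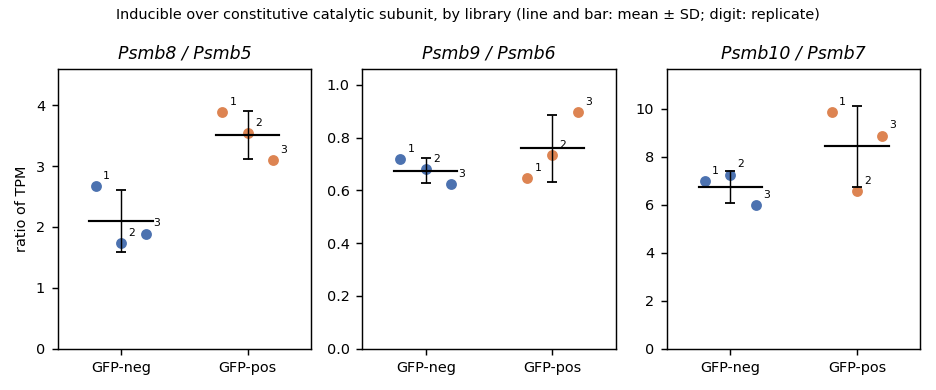
Ratio of the TPM of an inducible catalytic subunit to that of its constitutive counterpart in each library (points, digit for the replicate; line and bar, mean ± SD of 3 libraries; blue GFP-negative, orange GFP-positive; each axis starts at 0). The ratio of Psmb8 to Psmb5 is above 3 in all GFP-positive and below 2.7 in all GFP-negative libraries, and the other ratios overlap.

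Per gene length, subunits that occur in equal number in a complete particle had unequal mRNA levels. Over all 6 libraries the alpha ring ran from 498.7 TPM in Psma6 to 122.1 TPM in Psma4. The constitutive beta ring ran from 523.4 TPM in Psmb3 to 37.6 TPM in Psmb7, a 13.9-fold span. Psmb7 is replaced by Psmb10 in immunoproteasomes, so that it need not occur in equal number with Psmb3. Among the beta subunits without an inducible counterpart the lowest was Psmb4, at 111.6 TPM. The ATPases ran from 356.7 TPM in Psmc5 to 63.4 TPM in Psmc2, and the non-ATPase subunits from 246.3 TPM in Psmd4 to 36.2 TPM in Psmd3. Psme2 was the highest member at 723 TPM, above Psme1 at 526, Psmb8 at 461, Psmb9 at 307 and Psmb10 at 280.1 TPM. Psmb8 and Psmb10 thus had more mRNA per length than their constitutive counterparts, and Psmb9 less than Psmb6. Summed over the 45 genes other than the inducible ones, the level was 7861 ± 800.0 TPM in the 3 GFP-negative and 6502 ± 464.2 TPM in GFP-positive libraries (SD, n = 3 each). This sum overlapped between the gates, at 6938 TPM in GFP-negative replicate 1 and 7030 TPM in GFP-positive replicate 1. Summed over the 5 inducible genes the level was 2306 ± 54.1 and 2288 ± 157.0 TPM, also with overlap.

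**Figure D5:**
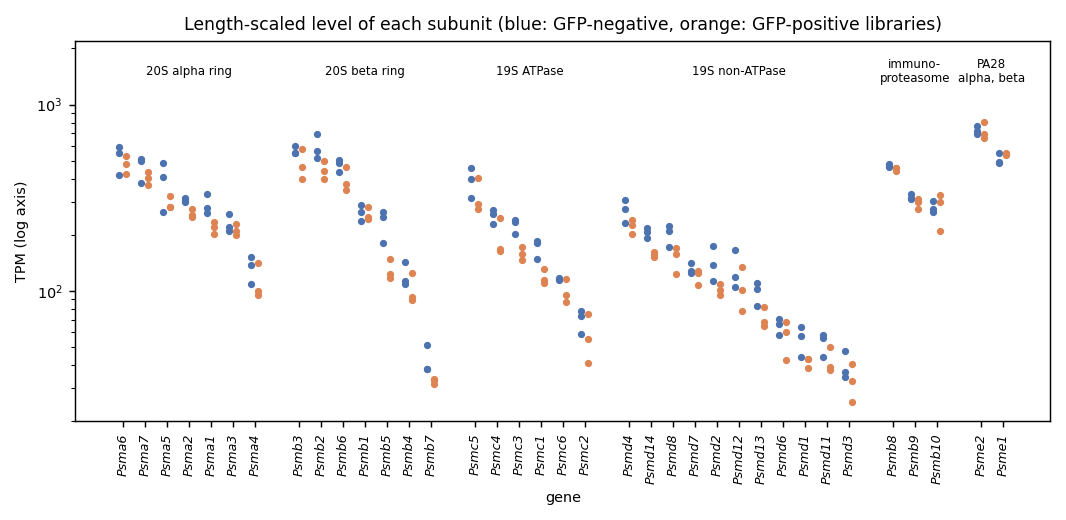
TPM of each subunit in each library on a log axis (blue GFP-negative, orange GFP-positive points), sorted within each role by the mean over all libraries. Within a ring the levels span 4.08-fold (alpha) and 13.9-fold (constitutive beta, down to Psmb7, which Psmb10 can replace), more than the gates differ for any one gene.

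Genes that work with the proteasome were read from lists of its partners. Of 21 partners, none was called (0.108% of all genes were) and 1, Adrm1, had an unadjusted p under 0.05 (10.3% of all genes did). Ranges of CPM did not overlap for 3 with GFP-positive lower (8.8% of all genes) and for 1 with GFP-positive higher (7.25%). Log2 fold changes were above 0 for 10 and below 0 for 11, with a median of -0.05. Adrm1, a ubiquitin receptor of the 19S particle, stood at 94.8, 123.0 and 114.5 CPM in the 3 GFP-negative libraries. It stood at 83.0, 83.9 and 79.7 CPM in the 3 GFP-positive ones, without overlap (log2 fold change -0.43 ± 0.16, SE, adjusted p = 0.379). Nfe2l1, the transcription factor that restores proteasome subunits when the proteasome is inhibited, stood at 36.8, 34.1 and 36.6 CPM against 26.2, 29.9 and 21.8 CPM, also without overlap (adjusted p = 0.566). Usp14, a deubiquitinase bound to the 19S base, went the other way, at 65.0 ± 6.80 and 82.4 ± 7.90 CPM, also without overlap (adjusted p = 0.565). The assembly factor Pomp (-0.13) and the small 19S subunit Sem1 (0.07) overlapped, and Ubqln1, a shuttle for ubiquitinated proteins, stood at 145.3 ± 11.3 and 118.7 ± 4.31 CPM without overlap (adjusted p = 0.521).

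Upstream of the particle, none of 23 genes of ubiquitin and of the p97 segregase was called, and the median was 0.06. At an unadjusted p under 0.05, 2 were higher (4.31% of all genes) and 2 lower (5.97% of all genes). Skp1a, a subunit of SCF ubiquitin ligases, stood at 225.4 ± 28.1 and 288.8 ± 20.04 CPM (SD, n = 3 each; adjusted p = 0.410). Vcp, p97 itself, stood at 155.0 ± 14.1 and 124.1 ± 9.89 CPM (adjusted p = 0.476), and its cofactor Faf1 at 96.7 ± 3.81 and 72.2 ± 8.80 CPM (adjusted p = 0.409). The gates did not overlap for these 3 genes, 1 higher (7.25% of all genes) and 2 lower (8.8% of all genes), and overlapped for the others of the list.

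Downstream, none of 12 genes of MHC class I presentation was called, and their median was -0.03. An unadjusted p under 0.05 was found for 1, Erap1 (10.3% of all genes), and the gates overlapped for all of them. Tap1 and Tap2, the subunits of the peptide transporter that lie beside Psmb9 and Psmb8, had log2 fold changes of -0.07 ± 0.14 and 0.14 ± 0.15 (SE). B2m, the light chain of MHC class I, stood at 5231 ± 207.8 and 5849 ± 874.0 CPM with overlap, a log2 fold change of 0.16 that was 0.06 without GFP-positive replicate 3. Erap1, which trims peptides, stood at 113.8, 112.3 and 169.9 CPM in the 3 GFP-negative and at 142.0, 203.5 and 192.3 CPM in the 3 GFP-positive libraries, with overlap (log2 fold change 0.44 ± 0.20, adjusted p = 0.464).

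Of 14 genes of the interferon signal to the immunoproteasome, none was called, 10 were above 0 (51.6% of all genes) and the median was 0.15. At an unadjusted p under 0.05, 2 were higher (4.31% of all genes) and 2 lower (5.97%). Ranges did not overlap for 3 with GFP-positive higher (7.25% of all genes) and for 3 with GFP-positive lower (8.8%). Ifng, the cytokine itself, stood at 783.3, 484.6 and 543.2 CPM in the 3 GFP-negative and at 436.6, 325.3 and 374.2 CPM in the 3 GFP-positive libraries, without overlap (log2 fold change -0.67 ± 0.19, SE, adjusted p = 0.212). It passed the threshold with the replicate block (adjusted p = 0.0490) and by DESeq2 (0.0309). Jak2, a kinase of its receptor, was also lower in every GFP-positive library (63.7 ± 8.42 and 43.5 ± 8.72 CPM, adjusted p = 0.416). Irf1, a transcription factor that acts on the promoters of inducible subunits, stood at 382.0, 364.5 and 300.4 CPM against 388.5, 386.0 and 499.1 CPM, higher in every GFP-positive library (log2 fold change 0.28, adjusted p = 0.599, and 0.16 without GFP-positive replicate 3). Ifnar2, a chain of the receptor for type I interferon, stood at 40.4 ± 5.11 and 61.0 ± 6.53 CPM without overlap (adjusted p = 0.343). Ifngr2, a chain of the interferon-gamma receptor, stood at 3.30, 3.18 and 0 CPM against 5.20, 9.20 and 30.8 CPM, higher in every GFP-positive library. Its log2 fold change was 2.79 (adjusted p = 0.416), and 1.73 to 3.23 with 1 library left out. The highest value was in GFP-positive replicate 3, where myeloid markers were high, and raw counts ran from 0 to 215.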

How the data were processed

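Bulk RNA-seq was made from sorted CD4 T cells, 3 libraries per gate; groups and replicate numbers come from the sample titles. Per the labels' protocols, cDNA primed with oligo-dT and random hexamers was amplified by PCR and tagged with Nextera XT, which records neither strand nor molecule. Reads of overlapping genes therefore cannot be told apart, and floors from counts cover counting error only. The authors deposited raw counts per gene and TPM. The submitters' processing notes name the mm10 build and the tools STAR 2.7.10b, fastp 0.23.3, deepTools 3.5.1 and SAMtools 1.17. How reads were counted, with which annotation and gene lengths, is not given in the sources used. The labels' minimum of uniquely mapped reads is above the totals of the count table.

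From the counts, edgeR 4.0.16 (R 4.3.3) was run with TMM factors, its default filter by group (minimum count 10), robust quasi-likelihood F-tests and Benjamini-Hochberg adjustment over all 11074 genes kept, with a threshold of 0.05. CPM are scaled by the TMM factors. SE were derived from the log2 fold change and F. The fit was tested on simulated data. No 2 libraries were duplicates, since replicates differed with a chi-square of at least 10.7 per degree of freedom. Replicate numbers are shared by the gates, but no label says that a number marks a pair. The deviations of same-numbered libraries from their group means correlated at 0.108, 0.102 and 0.110 over genes. Those of libraries with different numbers correlated at -0.133 to 0.025. Pairing was thus not established by the labels. Fits without the block are reported, and the block, which called more genes, is given as an alternative.

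All 50 members matched GENCODE M21 by identifier and version. Sequence shared with other genes was counted as 100-base stretches of exons: 31 members had under 1% shared and 7 had at least 10%. Exons of 12 members overlap another gene on the opposite strand.

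Named genes were the 5 inducible members, their constitutive counterparts, the 8 members with the smallest p, those without overlap between gates, the highest and lowest TPM of each role, those removed by the filter, and, of each pathway list, the 4 smallest p and a few fixed genes; other members are given for their role. The members and lists were chosen with earlier results of these data known. Of the partner list, Paaf1 was not analysed here; 4 other list entries without a match (Shfm1, AI314180, Ufd1l and Skp1) are second symbols of listed genes that matched. A few genes of the other lists enter the list counts and are not reported by name. Alternatives were RLE factors (as in DESeq2), library size alone, no filter, 1 CPM in 3 libraries, DESeq2 1.42.0, limma-voom (limma 3.58.1), the block, limma on TPM (log2 after adding 1 or 0.1), a threshold of 0.1 and leaving out each library.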

Additional observations from a re-analysis of the deposited data

How the results depend on the processing

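No member passed the threshold under any alternative, including those that called more genes overall. The smallest adjusted p among the members followed was 0.0504, for Psmb5 with no filter on low counts (log2 fold change -0.76). Over all genes the number called was 12, and it was 19 with library size alone, 373 with no filter, 156 with DESeq2, 23 at a threshold of 0.1, 1 with limma on log2(TPM + 1), filtered or not, and 0 on log2(TPM + 0.1). Leaving out 1 library gave 0 to 42: 42 without GFP-positive replicate 3, 3 and 1 without GFP-negative replicates 2 and 1, and 0 without GFP-negative replicate 3 or GFP-positive replicates 1 or 2. With the replicate number as a block, 81 genes were called and no member; the adjusted p of Psmb5 was 0.136, and among the genes named the block changed no other call than those of Ifng (0.0490), Mki67 (0.0186) and Top2a (0.00910), which also passed with no filter and by DESeq2. Ifngr2 passed with no filter, as did Tcf7.

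The number of members above 0 was 10, and 6 in each of the 3 fits on TPM. It was 8 to 13 when a library was left out. The median of the other 43 members was then -0.31 (without GFP-negative replicate 1) to -0.14. Signs turned for 13 members, most of them with values near 0, but also for Psme4 (-0.42, and 0.016 without GFP-negative replicate 1), Psmd5 and Psmg1. Psmb8 was -0.021 with library size alone, -0.0027 with no filter, -0.062 on TPM and -0.063 to 0.044 when a library was left out. Psmb10 was -0.044 on TPM and -0.070 to 0.222, Psmb9 -0.138 to 0.020, and Psme2 -0.016 on TPM. On TPM Psmb1 was -0.036 and Sem1 -0.0066. With 1 library left out, the values spanned 0 for Psmb1 (-0.044 to 0.115), Psma3 (-0.089 to 0.020), Psma6 (-0.185 to 0.078), Psmd6 (-0.223 to 0.052), Psmd5 (-0.244 to 0.490), Psmg1 (-0.325 to 0.062), Psme3 (-0.294 to 0.151), Psme4 (-0.911 to 0.016), Psmf1 (-0.262 to 0.089) and Sem1 (-0.066 to 0.150). Of the 48 members, 35 kept their sign under all 16 alternatives fitted. The cause was not tested. The members with under 100 counts in at least 1 library were Psmd9, Psmg1, Psmg3, Psmg4, Psme4, Psme2b and Psmc3ip. Of these, Psmg1 and Psme4 turned sign and the others did not. The part of depth was not tested.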
